A study of Rattus norvegicus with 8 samples.

Results

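Acyl-CoA synthetases were compared between ovaries of rats exposed to 5α-dihydrotestosterone (DHT) and control (CTL) ovaries. The 7 genes examined were Acsl1, Acsl3, Acsl4 and Acsl5, which act on long-chain fatty acids, Acsm5, of the medium-chain family, Acss2, which acts on acetate, and Aacs, which acts on acetoacetate. They were chosen as genes, by symbol and substrate, with earlier results of these data known. Every probe set annotated to exactly one of these symbols was taken, 10 of the 31042 probe sets tested. All 7 genes were measured, out of 14217 genes with a probe set of a single symbol. Where a gene had more than 1 probe set, the brightest over the single-animal arrays was used and the others are given beside it.

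The animals were female Sprague-Dawley rats. DHT rats carried a silicone capsule that released DHT, which aromatase cannot turn into an estrogen, for 12 weeks, and CTL rats carried an empty capsule for the same time. Ovaries of both groups were taken at 15 weeks of age, and the series describes the tissue as ovarian cortex. RNA of 3 DHT and 3 CTL rats was hybridized to 1 Affymetrix array each, and 1 further array per group held the pooled RNA of the same 3 animals, which makes 8 arrays. As a model the design has a limit that bears on every value here, since the study's methods describe a corpus luteum in most CTL ovaries and none or very few in DHT ovaries.

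Free fatty acids cannot be oxidized, elongated or built into lipids until they are joined to coenzyme A, and acyl-CoA synthetases carry out this step with ATP. Members differ in the chain length they prefer and in the membrane or compartment they sit in. In the ovary, luteal and thecal cells hold lipid droplets of cholesteryl ester, so that fatty acid activation and the supply of cytosolic acetyl-CoA and acetoacetyl-CoA lie close to sterol and steroid synthesis. Aacs and Acss2 feed those last 2 pools, from acetoacetate and from acetate.

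Promoter windows of 4 members are shown because these were the members whose DHT and CTL animals did not overlap. Each runs from 250 bases before to 50 bases after a RefSeq start site in the rat assembly GRCr8. That start site need not be the outer end of the gene. Capitals mark matches on either strand to CCAAT, the box bound by NF-Y, or to GGGCGG, the GC box bound by Sp1. Acsl3 lies at chr9:87563351-87563650 on the plus strand, Acss2 at chr3:164464453-164464752 on the plus strand, Aacs at chr12:36817725-36818024 on the minus strand and Acsm5 at chr1:183302259-183302558 on the plus strand.
Acsl3: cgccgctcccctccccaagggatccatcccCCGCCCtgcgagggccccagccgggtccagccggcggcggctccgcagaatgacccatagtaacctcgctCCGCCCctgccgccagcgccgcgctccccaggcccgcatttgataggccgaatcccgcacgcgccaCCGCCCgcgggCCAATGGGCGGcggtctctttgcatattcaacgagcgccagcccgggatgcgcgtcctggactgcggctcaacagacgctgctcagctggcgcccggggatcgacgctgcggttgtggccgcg
Acss2: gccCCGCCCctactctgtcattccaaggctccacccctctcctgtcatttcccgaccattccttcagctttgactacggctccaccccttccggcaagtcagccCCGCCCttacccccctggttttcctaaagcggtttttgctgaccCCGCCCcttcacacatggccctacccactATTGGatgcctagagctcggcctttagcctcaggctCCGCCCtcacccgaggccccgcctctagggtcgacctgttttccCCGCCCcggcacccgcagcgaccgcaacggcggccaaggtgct
Aacs: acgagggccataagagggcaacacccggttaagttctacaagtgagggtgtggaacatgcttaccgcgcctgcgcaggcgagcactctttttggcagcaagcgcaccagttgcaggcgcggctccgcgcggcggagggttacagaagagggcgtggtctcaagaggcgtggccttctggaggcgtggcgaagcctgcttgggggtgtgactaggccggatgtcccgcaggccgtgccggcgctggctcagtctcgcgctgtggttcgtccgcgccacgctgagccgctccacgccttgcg
Acsm5: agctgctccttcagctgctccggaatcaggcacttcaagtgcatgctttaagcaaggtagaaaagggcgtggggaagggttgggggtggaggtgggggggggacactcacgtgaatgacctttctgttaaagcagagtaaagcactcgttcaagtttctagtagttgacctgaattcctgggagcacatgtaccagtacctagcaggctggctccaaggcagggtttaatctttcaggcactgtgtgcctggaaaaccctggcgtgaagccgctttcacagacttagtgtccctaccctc

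Acsl3 held 1 CCAAT box at -73 to -69 from the start site, with a GC box directly behind it at -68 to -63, and 4 GC boxes in all. Acss2 held 1 CCAAT box on the opposite strand at the same distance, -73 to -69, and 5 GC boxes. The windows of Aacs and Acsm5 held neither. Over all 33469 windows of 300 bases in the table, 37.5% held a CCAAT match and 33.1% a GC box. TCACNCCAC, a letter pattern of the sterol regulatory element type, was in none of the 7 members' windows and in 1.12% of all windows. Among the other members, Acsl4 held 2 overlapping GC boxes and Acsl1 1 CCAAT match on the opposite strand, while Acsl5 held no match. In the same assembly the genes of these 3 span chrX:110739633-110803416 for Acsl4, chr16:52487870-52554110 for Acsl1 and chr1:264294851-264341943 for Acsl5. The Acsl1 window, chr16:52532343-52532642 on the minus strand, lies inside its gene span, far from the end at 52554110 where the gene begins on that strand. The windows of Acss2 and Acsm5 also begin inside their gene spans, which start at 164464124 and 183302241. The GC content of the windows was 72.7% for Acsl3, 64% for Acss2, 66% for Aacs and 53% for Acsm5. A match is a description of letters, and no binding was measured.

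Values were deposited on a log2 scale after GCRMA, a normalization in which background is corrected by the base composition of each probe. Receptors of smell, taste and the vomeronasal organ served to set a background level, the 95th percentile of their 41 probe sets on each array. It was 2.62 to 3.07 on the 6 arrays of single animals. CTL replicate 3 stood apart, with Pearson r across probe sets of 0.87 and 0.88 with the other CTL animals, which had r = 0.98 with each other. Signal at the 3' control probe set of Gapdh minus that at the 5' one, on the log2 scale, rises where RNA is short at its 5' end, and it was 0.39 and 0.62 on CTL replicates 1 and 2, 3.49 on CTL replicate 3 and 2.99 to 3.98 on the DHT replicates. It was 2.62 on the pooled CTL array. CTL replicate 3 also differed in other ways. Its background level of 3.07 was the highest, and its median signal was 3.25, beside 2.97 to 3.03 on the other single-animal arrays. Control transcripts added at hybridization had a median of 9.76 on it, beside 7.35 to 8.33. Each member is therefore also given against CTL replicate 3 alone and against CTL replicates 1 and 2. Neither comparison is corrected for RNA integrity. Of 9 markers of ovarian cells, 8 were measured, and Foxl2, a transcription factor of granulosa cells, read 8.42 to 8.91 on the 6 arrays. The oocyte factor Bmp15 was near background on all 6.

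Of the 7 synthetases, Acsl3 was called lower in DHT-treated ovaries and none was called higher. A probe set was called by limma if it differed at least 2-fold with p up to 0.01 and a false discovery rate up to 10% over the 31042 probe sets. These criteria called 109 of them lower (0.351%) and 211 higher (0.68%). Aacs and Acsm5 lay just outside the limit on the false discovery rate, with log2 fold changes of -2.42 and 1.70 in opposite directions. Acsl3, Acss2 and Aacs had every DHT animal below every CTL animal, an order found at 6.85% of all probe sets, and Acsm5 had every DHT animal above, found at 10.6%. The remaining 3, Acsl1, Acsl4 and Acsl5, had overlapping groups. The study's pathway table names Acsl3, Acss2, Aacs and Acsm5 as changed in these arrays. It marks Acsl3 as repressed under adipocytokine signaling but as activated under fatty acid metabolism. The study's methods count the pooled arrays as a replicate, unlike the fit used here. The 7 were chosen with earlier results known. These shares and the medians that follow therefore describe the 7 and do not test them. The median log2 fold change of the 7 was -1.22, beside -0.029 over all probe sets. Against CTL replicate 3 alone the median of the 7 was -0.031, beside -0.098 over all probe sets, and against CTL replicates 1 and 2 it was -1.72, beside 0.022. A design of 3 animals against 3 cannot give an exact two-sided permutation p below 0.1, and the 4 members without overlap had that p.

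**Figure D1:**
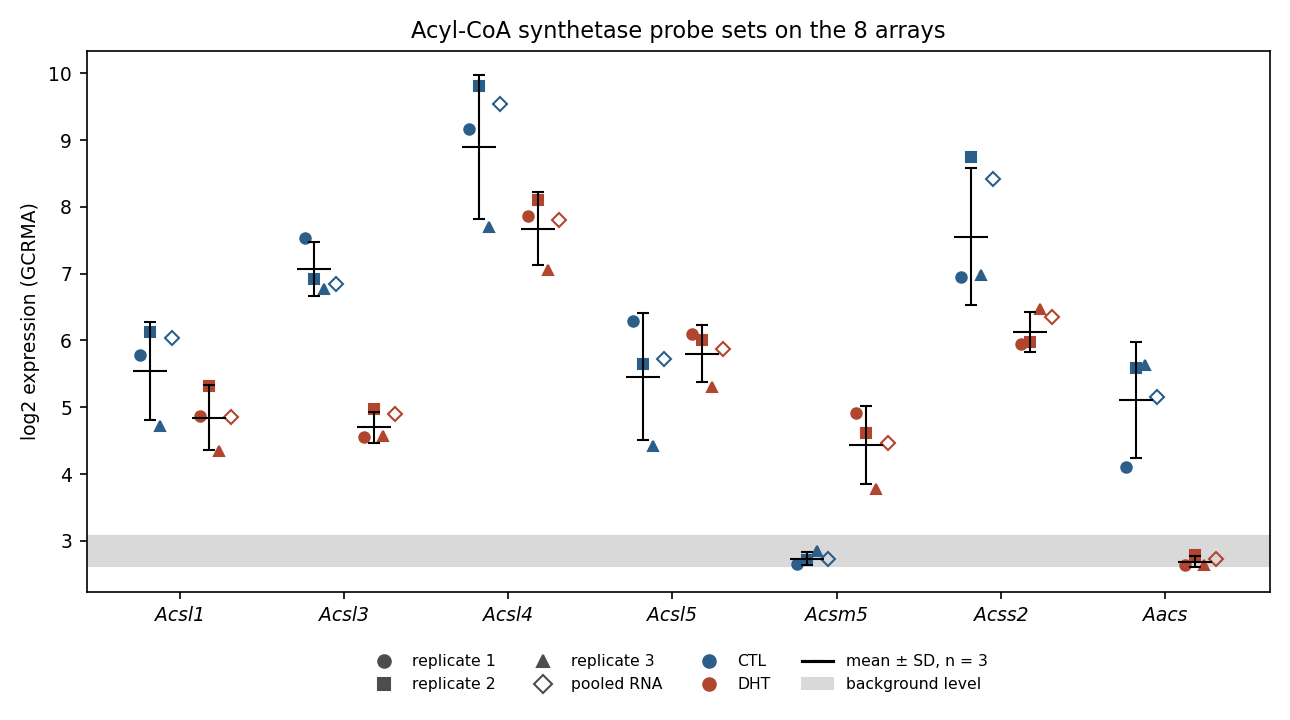
Log2 expression (GCRMA, vertical axis) of the probe set of each synthetase on the 3 CTL (blue) and 3 DHT (red) arrays of single animals, with group mean and SD (n = 3), the arrays of pooled RNA as open diamonds and the range of the background level in grey. Acsl3 shows the groups apart, at 4.56 to 4.97 in DHT and 6.77 to 7.53 in CTL, while CTL replicate 3 (blue triangles) lies among or below the DHT animals for Acsl1, Acsl4 and Acsl5. Heights of different genes are not comparable.

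Acsl3, a long-chain synthetase found on the endoplasmic reticulum and on lipid droplets, read 4.56, 4.97 and 4.57 on DHT replicates 1 to 3 and 7.53, 6.92 and 6.77 on CTL replicates 1 to 3. All DHT animals lay well below all CTL animals, and the gap between the groups was wider than the range within either. The DHT mean was 4.70 ± 0.24 (SD, n = 3) and the CTL mean 7.08 ± 0.40 (SD, n = 3). The log2 fold change was -2.38 (standard error 0.24, 95% interval -2.99 to -1.76, limma adjusted p = 0.052), or 5.19-fold lower. The pooled RNA read 4.89 in DHT and 6.84 in CTL. Against CTL replicate 3 alone the difference was -2.07, and against CTL replicates 1 and 2 it was -2.53. With the Gapdh difference as a covariate, which within CTL mainly sets replicate 3 apart from the others, the value was -2.0. The call was lost without any 1 of the DHT replicates or without CTL replicate 2, with adjusted p of 0.114 to 0.265 at log2 fold changes of -2.31 to -2.51, and held without CTL replicate 1 (0.0743) or CTL replicate 3 (0.0278).

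Corpus luteum markers went in the direction of Acsl3. Of 10 such genes 9 were measured, all 9 with a lower DHT mean and a median log2 fold change of -2.92. Of these 8 had all DHT below all CTL animals, an order found at 6.85% of all probe sets, and none was called. Against CTL replicate 3 alone the median of the 9 was -1.60. Star, Cyp11a1, Rln1 and A2m of this list are among the genes that the study reports as repressed in these arrays. The list was chosen with earlier results known, so it is not an independent measure. The summed level of the 9, as a log2 value, was 12.58 to 13.45 in DHT and 14.17 to 15.26 in CTL. Ptgfr, the receptor for the luteolytic prostaglandin, was near background on the 3 DHT arrays and on CTL replicate 3. In RNA of whole tissue, fewer cells of a type and less RNA per cell cannot be told apart. Macrophage markers, of which 14 of 15 were measured, had lower DHT means for 13, with 6 that did not overlap, and a median of -0.67. Against CTL replicate 3 alone that median was -0.19, beside -0.098 over all probe sets. Against CTL replicates 1 and 2 it was -1.19, beside 0.022. Their summed level was 9.89 to 10.38 in DHT and 10.20 to 11.66 in CTL, and Ctss, a lysosomal protease, was called lower (-1.16, adjusted p = 0.0994). Granulosa markers, 6 of 7 measured, had summed levels of 12.23 to 12.47 in DHT and 11.08 to 11.93 in CTL. Their median was 0.59, with 0.84 against CTL replicate 3 and 0.26 against CTL replicates 1 and 2. DHT means were higher for 5, of which 3 had all DHT above all CTL animals, found at 10.6% of all probe sets. Cyp19a1 went the other way (-2.91, adjusted p = 0.404), and Foxl2 (0.09) and Nr5a2 (0.22) differed little. Theca markers, 3 of 4 measured, had summed levels of 9.62 to 11.44 in DHT and 8.86 to 11.97 in CTL. Insl3, a hormone of theca cells, was called higher (3.11, adjusted p = 0.0575) and was near background on CTL replicate 3, at 2.79. Cyp17a1 had a higher DHT mean (2.65, adjusted p = 0.418). Lhcgr, also in the corpus luteum list, had a lower one (-0.63, adjusted p = 0.896). The highest sum was on CTL replicate 2, where Lhcgr read 11.92. The part of these cell types in the change of Acsl3 was not tested.

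Acsl4, which prefers arachidonic acid and is known from steroid-producing cells, read 7.86, 8.10 and 7.06 on the DHT replicates and 9.16, 9.81 and 7.70 on the CTL replicates. CTL replicates 1 and 2 were above every DHT animal, but CTL replicate 3 lay within the DHT range. The log2 fold change was -1.22 (standard error 0.61, 95% interval -2.78 to 0.34, adjusted p = 0.549). It was -0.031 against CTL replicate 3 and -1.81 against CTL replicates 1 and 2, and pooled RNA differed by -1.74. No change was called, and the interval holds both a decrease of more than 2-fold and no difference.

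Acsl1, a long-chain synthetase that serves both fatty acid oxidation and triglyceride synthesis, read 4.86, 5.32 and 4.35 on the DHT and 5.78, 6.12 and 4.72 on the CTL replicates. The same layout was seen as for Acsl4, with CTL replicate 3 inside the DHT range and the other CTL animals above it. Its log2 fold change was -0.70 (standard error 0.45, 95% interval -1.84 to 0.44, adjusted p = 0.708), with 0.13 against CTL replicate 3, -1.11 against CTL replicates 1 and 2 and -1.18 between the pooled arrays. Another probe set of Acsl1 gave -0.36 (adjusted p = 0.579), with DHT values of 3.42 to 4.07 all below CTL values of 4.11 to 4.25. The dimmest of the 3 was near background on all 6 arrays. Acsl1 is abundant in fat cells, and the adipocyte markers Adipoq, Plin1, Cidec and Lep were near background on all 6 arrays. Of the 10 adipocyte markers 9 were measured, with a summed level of 6.32 to 6.47 in DHT and 6.30 to 7.97 in CTL. DHT means were lower for 8 of the 9. Fabp4 (-1.72), Lpl (-1.09) and Lipe (-0.70), which other cells also express, had every DHT animal below every CTL animal without being called. That order was found at 6.85% of all probe sets. Against CTL replicate 3 alone Fabp4, Lpl and Lipe had -0.20, -0.41 and -0.23. Their part in the values of Acsl1 was not tested.

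Acsl5, a long-chain synthetase of mitochondria and endoplasmic reticulum that is best known from intestine and liver, read 6.10, 6.0 and 5.31 on the DHT and 6.30, 5.65 and 4.43 on the CTL replicates. The DHT range lay inside the CTL range, and CTL replicate 3 was the lowest of the 6 animals. Its log2 fold change was 0.34 (standard error 0.53, 95% interval -1.01 to 1.69, adjusted p = 0.896), with 1.38 against CTL replicate 3 and -0.17, of the opposite sign, against CTL replicates 1 and 2. With the Gapdh difference as a covariate it was 1.43. A second probe set gave -0.053 (adjusted p = 0.958). There CTL replicate 3, at 5.18, was the highest of the 6, the reverse of its place at the brighter probe set.

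**Figure D2:**
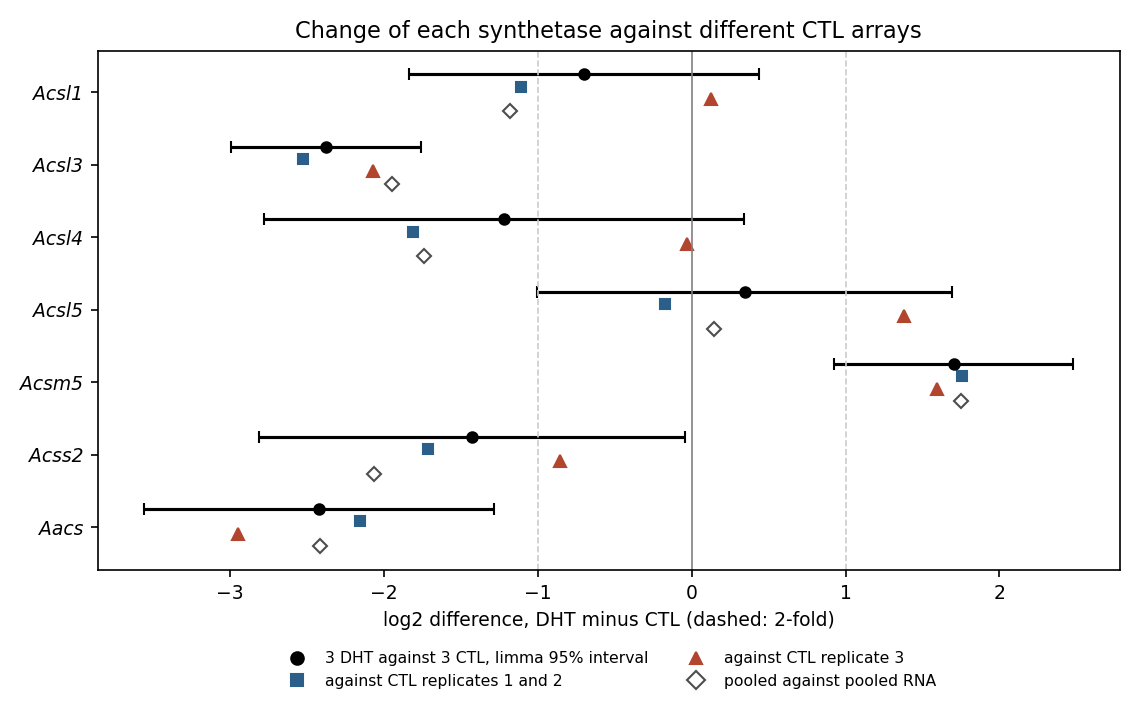
Log2 difference between DHT and CTL (horizontal axis) for each synthetase, as the limma fold change with its 95% interval (black), the DHT mean against CTL replicates 1 and 2 (blue squares) or CTL replicate 3 (red triangles), and pooled against pooled RNA (open diamonds). The 4 estimates lie between -2.53 and -1.95 for Acsl3 and between 1.59 and 1.76 for Acsm5, and they differ in sign for Acsl1 and Acsl5.

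Acsm5 was the only one of the 7 with every DHT animal above every CTL animal. This medium-chain synthetase of the mitochondrial matrix, known mainly from liver and kidney, read 4.91, 4.62 and 3.77 on the DHT and 2.65, 2.71 and 2.84 on the CTL replicates. CTL values lay close together at the background level, near background on 2 of the 3 arrays, while all DHT values were above it. Its log2 fold change was 1.70 (standard error 0.31, 95% interval 0.92 to 2.48, adjusted p = 0.108), a ratio of 3.25 that depends on CTL values close to background. The value was 1.59 against CTL replicate 3 and 1.76 against CTL replicates 1 and 2, and pooled RNA gave 1.75. Acsm5 was called higher when probe sets near background on all 6 arrays were left out, with 21027 tested (adjusted p = 0.088). It was also called with the pooled arrays as a replicate 4 (0.00762), which hold RNA of the same animals. No call was made with any 1 array left out, and the adjusted p without 1 DHT replicate was 0.155 to 0.345.

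Aacs, the cytosolic enzyme that turns acetoacetate into acetoacetyl-CoA for lipid synthesis, read 2.64, 2.78 and 2.64 on the DHT and 4.10, 5.59 and 5.64 on the CTL replicates. Every CTL animal was above background, and 2 of the 3 DHT arrays were near it. The log2 fold change was -2.42 (standard error 0.45, 95% interval -3.56 to -1.29, adjusted p = 0.112), which rests on DHT values at the lower end of the scale. It was -2.95 against CTL replicate 3 and -2.16 against CTL replicates 1 and 2, and the pooled arrays differed by -2.41. Without CTL replicate 1, the lowest of the CTL animals, Aacs was called lower (-2.93, adjusted p = 0.019), as it was without the dim probe sets (0.0872). It was also called with the pooled arrays as replicate 4 (0.00874), which hold RNA of the same animals. No call was made without any 1 DHT replicate (0.327 to 0.371) or without CTL replicate 2 (0.241) or CTL replicate 3. Nor was Aacs called after quantile normalization (0.187) or with a mean-variance trend (0.131).

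Acss2, the synthetase of cytosol and nucleus that makes acetyl-CoA from acetate, read 5.94, 5.97 and 6.47 on the DHT and 6.94, 8.74 and 6.98 on the CTL replicates. All DHT animals were below all CTL animals and CTL replicate 2 was far above the other CTL animals. With group means of 6.13 ± 0.30 (SD, n = 3) and 7.56 ± 1.03 (SD, n = 3), the log2 fold change was -1.43 (standard error 0.54, 95% interval -2.81 to -0.045, adjusted p = 0.405). It was -0.85 against CTL replicate 3 and -1.72 against CTL replicates 1 and 2, and -0.83 without CTL replicate 2. Counting the pooled arrays as replicate 4, which adds RNA of the same animals and no further animal, called it lower at -1.59 (adjusted p = 0.099).

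Differences between synthetases within 1 array do not depend on the scaling of that array. Over the 21 pairs of members, 13 had groups that did not overlap, each with the smallest exact two-sided permutation p of 0.1. After Benjamini-Hochberg adjustment over the pairs this was 0.162, so that no pair could pass. The pairs share members, some of which had no overlap alone, so the 13 are not separate observations. The share among pairs of other genes was not computed. Each gene stood with its brightest probe set. At the second probe set of Acsl5, CTL replicate 3 was the highest single animal, at 5.18. Pairs with that probe set were not computed, so the overlap of pairs that hold Acsl5 is known for the brighter one only. The log2 signal of Acsl3 minus that of Acsl5 was -1.54, -1.03 and -0.74 on the DHT and 1.24, 1.27 and 2.34 on the CTL replicates, a shift of -2.72. Acsl1 minus Acsl3 was 0.30, 0.34 and -0.22 in DHT and -1.75, -0.80 and -2.05 in CTL, a shift of 1.68. For these 2 pairs CTL replicate 3 lay on the side of the other CTL animals, which follows from the lack of overlap and is no further observation. Acsl3 minus Acsl4 overlapped, with -3.30 to -2.49 in DHT and -2.89 to -0.94 in CTL. The pair Acsl1 and Acsl4 also overlapped, at -2.99 to -2.71 in DHT and -3.69 to -2.99 in CTL, with a shift of 0.52. Shifts of pairs that hold Acsm5 or Aacs have no exact size, since Acsm5 was near background on 2 of the 3 CTL arrays and Aacs on 2 of the 3 DHT arrays. Only shifts between arrays can be read, since the level of 1 probe set cannot be set against that of another.

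**Figure D3:**
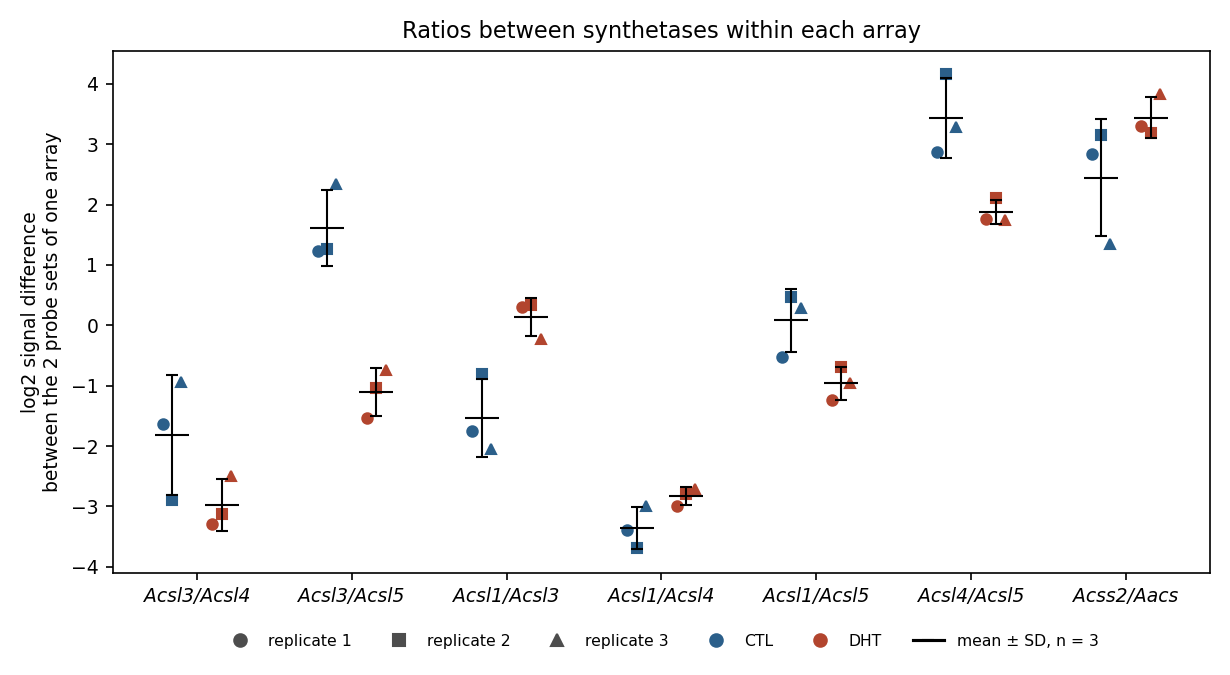
Log2 signal of the first gene minus that of the second on each array (vertical axis), for 7 pairs of synthetases, in the 3 CTL (blue) and 3 DHT (red) animals with mean and SD (n = 3). The groups do not overlap for Acsl3/Acsl5, Acsl1/Acsl3, Acsl1/Acsl5, Acsl4/Acsl5 and Acss2/Aacs, and overlap for Acsl3/Acsl4 and Acsl1/Acsl4. Aacs was near background on 2 of the 3 DHT arrays. Acsl5 is shown at its brighter probe set only, and its other probe set places CTL replicate 3 differently. The position of a pair on the axis has no meaning, and only the distance between its groups can be read.

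The genes whose pattern over the 6 arrays of single animals was most like that of Acsl3 were Mt2A, a metallothionein, Sdc1, a cell surface proteoglycan, and Giot1, a transcription repressor of the ovary that responds to gonadotropin. The root mean square difference of the log2 values from those of Acsl3, each gene centred on its own mean, was 0.24 for Mt2A, 0.27 for Sdc1 and 0.28 for Giot1. Mt2A read 8.07 to 8.47 in DHT and 9.68 to 10.70 in CTL and was called lower (-2.07, adjusted p = 0.0736), as was Sdc1 (-2.65, adjusted p = 0.0717), while Giot1 was not (-2.32, adjusted p = 0.13).

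Of 18 other genes of the same enzyme class, which include the fatty acid transport proteins with synthetase activity, 15 were measured and none was called in either direction. Their median log2 fold change was 0.049, with 5 below and 10 above 0, and 3 of them were near background on all 6 arrays. Acsf2, another synthetase for medium-chain fatty acids, had 5.46 to 5.62 in DHT and 4.40 to 4.67 in CTL. All its DHT animals lay above all CTL animals, and its log2 fold change of 0.97 (adjusted p = 0.0508) missed the limit of 2-fold. Acsbg1, a synthetase for very long-chain fatty acids first known from brain, had 10.00 to 10.74 in DHT and 5.41 to 8.90 in CTL. Again the groups did not overlap, and with CTL replicate 3 the lowest its log2 fold change was 2.73 (adjusted p = 0.392), with 5.0 against that animal and 1.59 against CTL replicates 1 and 2. The relatives closest to Acsm5 by family, Acsm1, Acsm2 and Acsm3, had log2 fold changes of -0.0071, -0.029 and -0.085 and lay near background on 3 to 6 of the 6 arrays.

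Among genes that split, carry or use the products, 1 was called lower and none higher. Acot7, a thioesterase that splits long-chain acyl-CoA, was the one called, out of 10 measured thioesterases. It had 5.06 to 5.42 in DHT and 6.10 to 6.76 in CTL and a log2 fold change of -1.25 (adjusted p = 0.0923). Thioesterases had a median of -0.37, and 9 of 10 were below 0, among them Acot3 at -0.16 (adjusted p = 0.462) and Acot4 and Acot12, which were near background on all 6 arrays. Of 10 measured genes of acyl-CoA and fatty acid binding, none was called and the median was 0.20. Fabp3, a fatty acid binding protein, had 2.45 (adjusted p = 0.169), with 11.46 to 11.83 in DHT and 7.96 to 9.91 in CTL, and Acbd6, an acyl-CoA binding domain protein, had 0.70 (adjusted p = 0.265).

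Neighbours of Aacs and Acss2 in metabolism were not called. The 5 measured genes of ketone body and acetoacetate use had a median of -1.21, which was 0.82 against CTL replicate 3 alone. Acat2, which makes acetoacetyl-CoA in the cytosol, had -2.23 (adjusted p = 0.258), with all 3 DHT animals below all 3 CTL animals. Bdh2, a dehydrogenase of ketone bodies, had 0.86 (adjusted p = 0.177). The 6 genes around cytosolic acetyl-CoA had a median log2 fold change of -0.72, and -0.41 against CTL replicate 3. All had lower DHT means, but Acacb was near background on all 6 arrays and Mlycd was at 1.01 against CTL replicate 3. Of these, Fasn, the fatty acid synthase, had -1.30 (adjusted p = 0.15), and Acly, which makes acetyl-CoA from citrate, had -1.10 (adjusted p = 0.303). For the 19 measured genes that use long-chain acyl-CoA the median was -0.25 and 15 were below 0, but against CTL replicate 3 alone the median was 0.073. Agpat2, an acyltransferase of phospholipid and triglyceride synthesis, had -1.26 (adjusted p = 0.177) and Soat1, which makes cholesteryl esters, had -0.84 (adjusted p = 0.236).

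**Figure D4:**
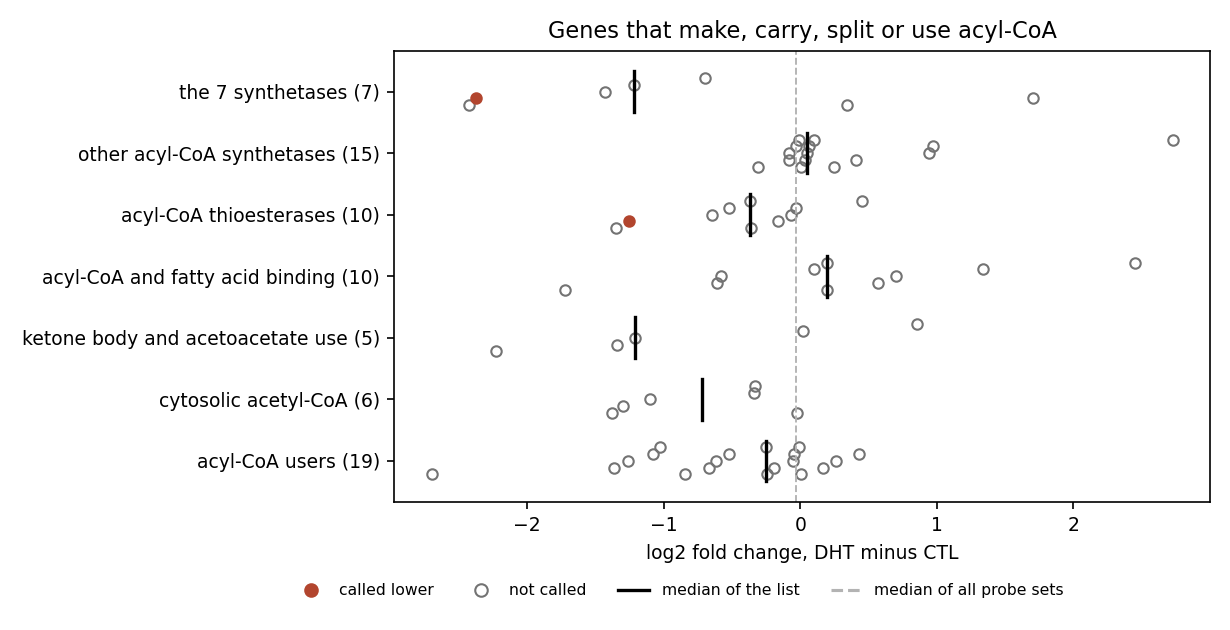
Log2 fold change between DHT and CTL (horizontal axis) of each measured gene, by list with the number measured in parentheses, with called genes in filled red, the median of each list as a black bar and the median of all probe sets, -0.029, dashed. Acsl3 and Acot7 are the 2 called genes, and the 15 other synthetases centre near 0, at 0.049.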

How the data were processed

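Ovarian RNA was read on Affymetrix Rat Genome 230 2.0 arrays. Values deposited by the authors are log2 signals of whole probe sets after GCRMA, whose version is not given in the sources used here. Probe sets were named from the platform annotation and updated through Entrez gene to RefSeq, whose GRCr8 table also gave the promoter windows. Of 31042 probe sets, 20826 carried 1 symbol, 436 several and 9780 none, and the 57 Affymetrix controls were left out. DHT and CTL, with 3 arrays each, were compared by a linear model with moderated variances (limma 3.58.1, R 4.3.3). Its p-values were adjusted by Benjamini-Hochberg across all 31042 probe sets. Arrays of pooled RNA hold RNA of the same animals and served as a check. The study's methods count them as a replicate. The method was tested on simulated data with independent noise of the same spread on every array. That setting holds no array that stands apart as CTL replicate 3 does, so it says nothing of calls with such an array. The 7 members and the lists were chosen with earlier results of these data known. Outside the 7, named genes are those called, up to 2 per list with the smallest p and the 3 most like Acsl3. Acsm1, Acsm2, Acsm3, Acot4, Acot12, Acacb, Mlycd and the marker genes were added to these after their values were seen. Alternatives were the pooled arrays as replicate 4, a replicate block, each array left out, array weights, a mean-variance trend, quantile or median scaling, removal of dim probe sets, gene means over probe sets, other criteria, a Gapdh integrity covariate, and subsets of the CTL arrays. The number of arrays limits the precision.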

Additional observations from a re-analysis of the deposited data

How the results depend on the processing

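Acsl3 kept its direction under every alternative and Acsm5, Acss2 and Aacs did as well, while calls moved with the arrays used. The number of the 7 members called lower was 1, and it was 3 with the pooled arrays as replicate 4 (Acsl3, Acss2 and Aacs), with array weights (Acsl3, Acsl4 and Aacs) or at an unadjusted p of 0.05, 2 (Acsl3 and Aacs) without dim probe sets, with the Gapdh covariate or against CTL replicate 3 alone, and 0 at an adjusted p of 0.05; leaving out 1 array gave 0 to 2. The number called higher was 0, and 1 (Acsm5) with the pooled arrays, without dim probe sets, with array weights or at an unadjusted p of 0.05. Over all probe sets 109 were called lower and 211 higher. These counts were 433 and 533 with the pooled arrays, 176 lower without dim probe sets, 87 higher after quantile normalization, 40 and 21 with a mean-variance trend, 1144 and 730 with array weights, 1088 and 2659 with the Gapdh covariate, 1165 and 2505 against CTL replicate 3 alone, 10 and 19 at an adjusted p of 0.05, and 1217 and 2464 at an unadjusted p of 0.05. Leaving out 1 array gave 0 to 968 lower, the highest without CTL replicate 3, and 0 to 654 higher; without any 1 DHT replicate none was called, while 2529 to 2623 passed an unadjusted p of 0.05. Other acyl-CoA genes called were 1 lower and 0 higher, then 5 and 1 with the pooled arrays, and 0 to 7 and 0 to 2 with 1 array left out. The fit against CTL replicate 3 alone assumes that this 1 array varies like the DHT arrays, and the Gapdh fit sets mainly the same array apart; they put 19038 and 18153 of all probe sets under an unadjusted p of 0.05, so their calls say nothing of stability.

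With a replicate block 0 members, 0 probe sets in either direction and 0 other acyl-CoA genes were called by limma, with 3817 probe sets and 5 members at an unadjusted p under 0.05. The numbers were not taken as pairs: the deviations of same-numbered animals had r = -0.074, 0.44 and 0.34 across probe sets.

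The sign turned for Acsl1 with the Gapdh covariate (0.21) and against CTL replicate 3 (0.13), for Acsl4 with that covariate (0.024), and for Acsl5 with array weights (-0.0051) and against CTL replicates 1 and 2, that is without CTL replicate 3 (-0.17). With 1 array left out the value of Acsl5 was -0.17 to 0.76. The causes were not tested. The weight of CTL replicate 3 was 0.028, and those of the other arrays 1.07 to 7.76.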
